A study of Mus musculus with 12 samples.

Results

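Neat1, a long noncoding RNA, and 5 proteins of the nuclear body built on it were followed through mouse islets: Nono, Sfpq, Pspc1, Rbm14 and Hnrnpk. They are 6 of the 24503 genes in the deposited tables and were found there by name. Neat1 was chosen by its measured counts in the wild-type islets, so its values there are given as a description, with no test. The proteins were chosen for their role, with earlier results of these data known.

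Neat1 RNA is the scaffold of the paraspeckle, a ribonucleoprotein body in the nucleus that forms around Neat1 transcripts as they are made. Paraspeckles hold back certain proteins and RNAs, and in many cell types Neat1 RNA responds to stress and to stimulation. Nono, Sfpq and Pspc1 form one family of RNA-binding proteins that pair with each other and coat the RNA. Sfpq and Nono are needed for paraspeckles to form. Hnrnpk favours the long form of Neat1 by hindering the processing that yields the short form, and Rbm14 is an RNA-binding coactivator that paraspeckles need.

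Total RNA of isolated islets was sequenced in 12 libraries, 2 mice in each of 6 groups, and all mice were of the C57BL/6 background. Wild-type islets were kept with 11 mM glucose for 4 h plus diazoxide (11G+D), with 11 mM glucose for 4 h plus FK506 (11G+FK), with 11 mM glucose for 4 h alone (11G), or at low glucose (2G). Diazoxide opens the ATP-sensitive potassium channel and holds β cells hyperpolarized, and FK506 inhibits calcineurin, a phosphatase activated by calcium. The 2G islets are labelled untreated, with no time given, so effects of incubation and of glucose cannot be told apart in comparisons with 2G. The other mice carry channelrhodopsin-2 (ChR2), a light-gated cation channel, in β cells, and the labels used here name no promoter or Cre line behind it. Their islets received light for 40 min in cycles with 5 min off (ChR2 light) or no light (ChR2 no light), at a glucose concentration that the labels used here do not give. The same mouse numbers recur in the groups of each genotype.

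The libraries held 15196061 to 22892255 counts. Ins2, the main mouse insulin gene, took 4.49% to 7.59% of them, and glucagon (Gcg) took 0.161% to 1.46%. Genes of exocrine acinar cells summed to 0.00675% to 0.12% of counts over 13 of 14 listed markers, none of them at 0 in any library. Their share was 0.0087% to 0.0537% at 11G and 0.0659% to 0.12% at 2G, so it moved with that comparison, and its part in the results below was not tested. At 11G+D it was 0.021% to 0.0416%, inside the 11G range. In whole islets, fewer cells of a type and less RNA per cell cannot be told apart.

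Neat1 spans positions 5824708 to 5845478 on the minus strand of chromosome 19, in the coordinates of the deposited tables, which name no genome build. The counted model is 20771 bases long, so the short form, which shares its 5′ end, and the long form were counted together. Levels are given in FPKM, fragments scaled to gene length and library size, and changes as log2 differences with their standard error. Neat1 stood at 19.4 and 17.6 FPKM in 11G+D, at 138 and 160 FPKM in 11G+FK, at 186 and 183 FPKM in 11G, and at 70.6 and 58.9 FPKM in 2G, mouse 1 first. No group of wild-type islets overlapped another, and the order was 11G, 11G+FK, 2G and 11G+D from high to low. Across the wild-type libraries the highest level was 10.6 times the lowest. The lowest Neat1 count in any library was 3589 and the highest 85064, so counting error is small beside these differences.

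With diazoxide, Neat1 was 10.1-fold lower than with 11 mM glucose alone, a log2 change of -3.34 ± 0.22 (SE, n = 2 mice per group). The 2 mice gave -3.38 and -3.30. Neat1 took 0.0403% and 0.0365% of all counts in 11G+D, against 0.387% and 0.380% in 11G. By FPKM it ranked 3687 and 4089 among the genes of the 11G+D libraries, against 235 and 267 among those of the 11G libraries. Neat1 was thus among the most abundant RNAs at 11G and well down the list with diazoxide.

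Neat1 with diazoxide was also below the low-glucose islets, by a log2 change of -1.78 ± 0.21 and in both mice (-1.85 and -1.70). Islets at 11G exceeded those at 2G by 1.56 ± 0.21 on the log2 scale, or 2.96-fold, with 1.53 and 1.60 in the 2 mice. FK506 left Neat1 near its 11G level: 138 and 160 FPKM in 11G+FK against 186 and 183 FPKM in 11G, a log2 change of -0.38 ± 0.20. The groups did not overlap, and the 2 mice gave -0.55 and -0.21. Set against the other 2 groups, 11G+FK was above 2G by 1.19 ± 0.21 and above 11G+D by 2.97 ± 0.22 on the log2 scale.

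Light did not move Neat1 the same way in the 2 ChR2 mice, and this comparison, which did not serve to choose the gene, was tested. Neat1 stood at 47.9 and 8.82 FPKM with light, against 35.1 and 59.7 FPKM without light. It was higher with light in mouse 1 (log2 change 0.40) and lower in mouse 2 (-2.77). The joint log2 change of -1.18 ± 0.47 did not pass the threshold (adjusted p = 0.333 by edgeR, whose quasi-likelihood test is used throughout with Benjamini-Hochberg adjustment over all genes). In the authors' deposited table of mouse 2, which compares 1 library with 1 library, the log2 change was -2.78 with an adjusted p of 1.02e-06, and in the authors' deposited table of mouse 1 it was 0.40 with an adjusted p of 1.0. In the fit of all 12 libraries the change was 0.38 or 0.39 without either library of mouse 2. It was -2.78 or -2.79 without either library of mouse 1. With the mouse number as a block, each of these fits rests on the 1 library pair of the other mouse, so no test is given. The ChR2 light library of mouse 2 held the lowest Neat1 level of all 12.

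Fos, Fosb, Npas4, Hspa1a and Hspa1b are given beside Neat1 as a description of the light libraries and were chosen after their values were seen, so no test is given for them. Fos, an immediate early gene, was at 33.3 and 30.3 FPKM with light, against 7.06 and 5.5 FPKM without (log2 change 2.32 ± 0.20). Fosb, a related gene, was at 11.1 and 25.6 FPKM with light, against 2.81 and 0.478 FPKM without. Its log2 change was 1.93 in mouse 1 and 5.69 in mouse 2. Npas4, an activity-dependent transcription factor, had 355 and 126 counts with light, against 31 and 32 without (log2 change 2.48 ± 0.35). The Npas4 change was 2.98 in mouse 1 and 1.89 in mouse 2. The heat shock gene Hspa1b was at 37.4 and 5.12 FPKM with light, against 5.38 and 2.76 FPKM without, and so was high in the library of mouse 1 in which Neat1 was also above its pair. Hspa1a, a related heat shock gene, was at 25.2 and 1.98 FPKM with light, against 3.11 and 1.81 FPKM without. The part of these genes in the Neat1 values was not tested. Leaving out 1 of the 4 ChR2 libraries gave Fos changes of 2.18 to 2.44 and Npas4 changes of 1.9 to 2.98 on the log2 scale.

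Over all 6 groups, mean Neat1 ran from 185 ± 2.26 FPKM in 11G through 149 ± 15.7 in 11G+FK, 64.8 ± 8.26 in 2G, 47.4 ± 17.4 in ChR2 no light and 28.4 ± 27.6 in ChR2 light to 18.5 ± 1.26 in 11G+D (SD, n = 2 each). Neighbours in this order overlapped from 2G downward: 2G with ChR2 no light, ChR2 no light with ChR2 light, and ChR2 light with 11G+D. The 3 highest groups were apart from each other.

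**Figure D1:**
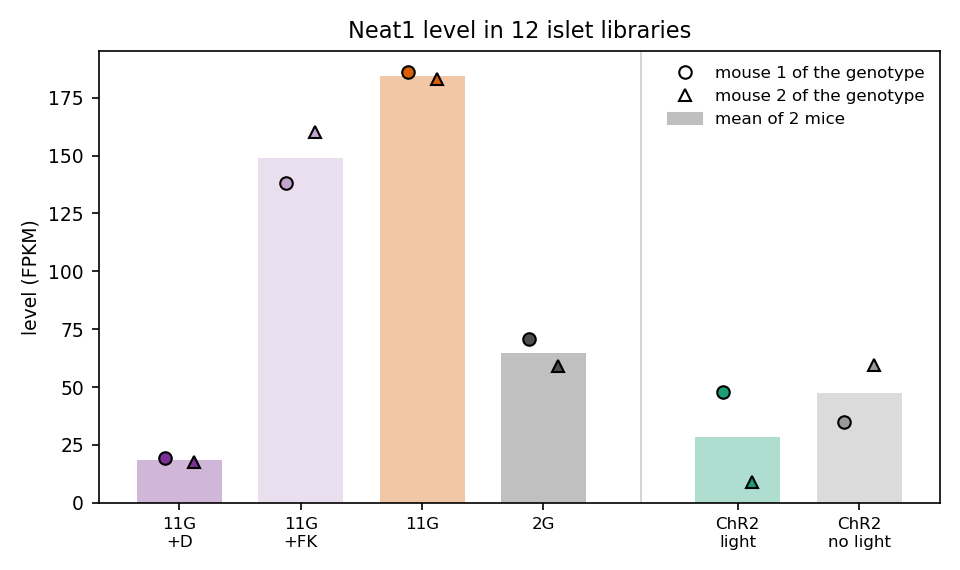
Neat1 level in FPKM in each of the 12 islet libraries, with wild-type groups on the left and ChR2 groups on the right. Bars are means of 2 mice and symbols are single mice. The 11G+D libraries lie at 19.4 and 17.6 FPKM against 186 and 183 FPKM in 11G, while the ChR2 light libraries lie apart at 47.9 and 8.82 FPKM.

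Among the proteins, Rbm14 was the one that edgeR called at 11G against 2G and in 11G+D against 11G. Its gene lies on the same chromosome, 1013 kb from Neat1, at positions 4800569 to 4811634 on the minus strand of chromosome 19. Rbm14 stood at 5.69 and 4.09 FPKM in 11G+D, at 11.6 and 11.8 FPKM in 11G+FK, at 17.4 and 14.6 FPKM in 11G, and at 9.27 and 9.73 FPKM in 2G. As for Neat1, no wild-type group overlapped another and the order of the groups was the same. The wild-type groups of Pspc1 and Hnrnpk did not overlap either, but stood in other orders.

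With diazoxide, Rbm14 fell relative to 11G by 1.74 ± 0.18 on the log2 scale, 3.35-fold lower (adjusted p = 0.0013 by edgeR's quasi-likelihood test). It was the 1 of 5 proteins called in this comparison, beside 2.46% of all genes called lower and 3.79% called in either direction. The 2 mice gave log2 changes of -1.73 and -1.76, and the call held in each fit that left out 1 of the 4 libraries. In the authors' deposited table of mouse 1 Rbm14 had a log2 change of -1.73 and an adjusted p of 0.0126. In the authors' deposited table of mouse 2, which runs 11G over 11G+D, it had 1.76 and 0.0229.

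Rbm14 rose at 11G relative to 2G by 0.79 ± 0.17 on the log2 scale (adjusted p = 0.0327 by edgeR), again 1 of 5 proteins, beside 3.13% of all genes called higher and 4.84% in either direction. This call was lost without the 11G library of mouse 1 (log2 change 0.66) and without the 11G library of mouse 2 (0.93). Calls over all genes also fell in both of these fits. Leaving out the 2G library of mouse 1 lost the Rbm14 call too (0.61), although calls over all genes rose there. Without the mouse number as a block the change was 0.81 (adjusted p = 0.166 by edgeR). In 11G+D Rbm14 was lower than in 2G, by a log2 change of -0.95 ± 0.18 (adjusted p = 0.0207 by edgeR). That call was lost without the mouse 2 library of 2G (-0.77, adjusted p = 0.0813 by edgeR) or of 11G+D (-0.80, adjusted p = 0.0851 by edgeR), and without the block (adjusted p = 0.122 by edgeR).

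With FK506, Rbm14 had a log2 change from 11G of -0.51 ± 0.17 that did not pass the threshold (adjusted p = 0.34 by edgeR), though the groups did not overlap. None of 5 proteins passed in that comparison with edgeR or DESeq2, beside 0.23% of all genes called by edgeR, and 1 had an unadjusted p under 0.05. Set against 11G+D, Rbm14 was higher in 11G+FK by 1.23 ± 0.18 (adjusted p = 0.0154 by edgeR), the 1 of 5 proteins called there, beside 0.783% of all genes called higher. That call was lost without the 11G+D library of mouse 2 (1.08, adjusted p = 0.0716 by edgeR), without the 11G+FK library of mouse 1 (1.33, adjusted p = 0.153 by edgeR) or of mouse 2 (1.13, adjusted p = 0.318 by edgeR), and without the block (adjusted p = 0.167 by edgeR). Between 11G+FK and 2G the Rbm14 change was 0.28 ± 0.17 (adjusted p = 0.398 by edgeR).

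Under light Rbm14 had no call: 7.02 and 6.42 FPKM with light against 6.92 and 9.55 FPKM without, with overlapping groups and a log2 change of -0.31 ± 0.21 (adjusted p = 0.645 by edgeR). Rbm14 shares its stretch of chromosome with the gene models Gm21992 and Gm21844, which held 3 to 46 and 4 to 37 counts. Rbm14 itself had 249 to 1340 counts.

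**Figure D2:**
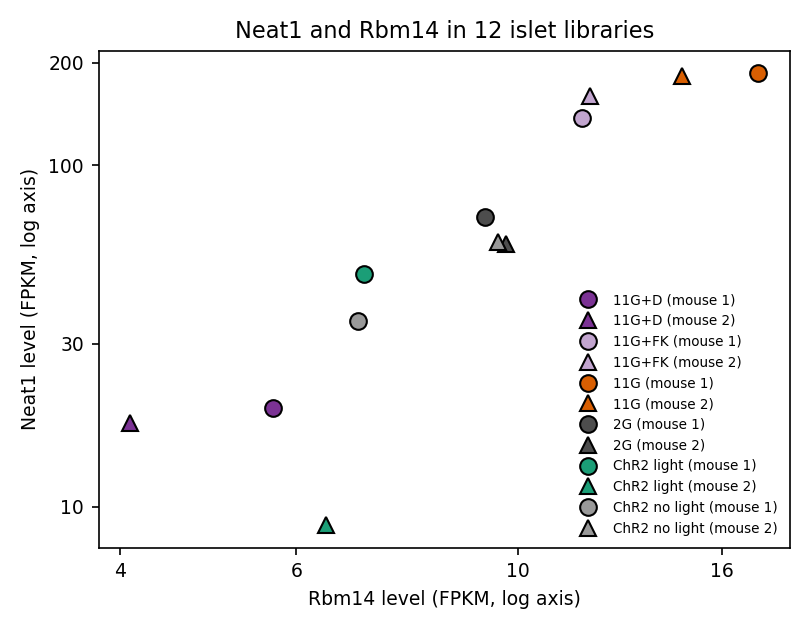
Neat1 level against Rbm14 level, both in FPKM on logarithmic axes, with 1 symbol per library and the colour giving the group. Both levels are lowest in the 11G+D libraries among wild-type islets and highest in 11G, and the ChR2 light library of mouse 2 has the lowest Neat1 (8.82 FPKM) at an Rbm14 level of 6.42 FPKM.

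The promoters of Rbm14 and Pspc1, the 2 protein genes that edgeR called lower in 11G+D than in 2G, are shown as the 250 bases before the gene's start, from RefSeq on GRCm38.p6. Capitals mark TGACG, the core of a cAMP response element, or its reverse complement CGTCA. Rbm14 lies at chr19:4811635-4811884 on the minus strand and Pspc1 at chr14:56778319-56778568 on the minus strand.
Rbm14: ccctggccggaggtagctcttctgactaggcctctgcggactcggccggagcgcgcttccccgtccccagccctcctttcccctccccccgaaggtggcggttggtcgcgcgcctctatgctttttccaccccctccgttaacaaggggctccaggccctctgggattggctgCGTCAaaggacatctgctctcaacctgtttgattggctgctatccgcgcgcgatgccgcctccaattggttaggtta
Pspc1: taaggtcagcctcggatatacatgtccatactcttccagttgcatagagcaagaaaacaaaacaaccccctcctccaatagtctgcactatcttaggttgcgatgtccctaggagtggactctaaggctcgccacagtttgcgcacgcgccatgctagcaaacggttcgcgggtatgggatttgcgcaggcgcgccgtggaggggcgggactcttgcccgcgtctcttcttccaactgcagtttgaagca
A TGACG lies on the opposite strand of the Rbm14 promoter, at -77 to -73 from the start, and 17.8% of the 32851 promoters in the table hold one on either strand. Rbm14 also holds GGAAA, the core bound by NFAT factors, at -174 to -170 and at -127 to -123, as 55.6% of all promoters hold at least 1. The Pspc1 window holds none of the 8 motifs searched. TGACG also occurs in the RefSeq window of Hnrnpk, whose RNA was not called in any comparison. The Hnrnpk window (chr13:58402118-58402367) lies inside the counted gene model (58391142 to 58403343) if both use the same build. So does the Nono window (chrX:101429401-101429650), in a model from 101429318 to 101448591. Motifs in these windows are thus not upstream of the counted models. The full cAMP response element TGACGTCA (1.55% of all promoters), the AP-1 site TGANTCA (6.75%), the E-box CACGTG (6.02%) and the heat shock core GAANNTTC (6.69%) were in none of the 5 protein genes' windows. The hypoxia-response core ACGTG (16.6%) was in none of them, and TCGTG (13.3%), a core bound by NPAS4, was in that of Nono. Of the 6 members, 5 were in the promoter table, and Neat1 was not matched.

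Pspc1, the least abundant of the family that coats Neat1 RNA, was at 3.01 and 2.6 FPKM in 11G+D, at 3.95 and 3.39 FPKM in 11G+FK, at 4.08 and 4.52 FPKM in 11G, and at 6.67 and 4.64 FPKM in 2G. Both 11G+D libraries lay below all other wild-type libraries. Relative to 2G it fell in 11G+D by 0.97 ± 0.21 on the log2 scale (adjusted p = 0.0332 by edgeR). Together with Rbm14 this made 2 of 5 proteins called lower, beside 2.31% of all genes called lower and 5.22% in either direction. The Pspc1 call was lost whichever of the 4 libraries was left out, with changes of -1.15 to -0.79, and without the block (adjusted p = 0.144 by edgeR). Relative to 11G the Pspc1 change in 11G+D was -0.65 ± 0.21 (adjusted p = 0.134 by edgeR). Pspc1 had 129 to 538 counts per library, the fewest of the members.

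Nono, the most abundant of that family, was at 76.8 and 80.7 FPKM in 11G+D, at 71.5 and 67.9 FPKM in 11G+FK, at 64.5 and 71.8 FPKM in 11G, and at 99.8 and 95.7 FPKM in 2G. The 2G libraries lay above all other wild-type libraries. The log2 change was -0.48 ± 0.14 at 11G against 2G (adjusted p = 0.0856 by edgeR) and -0.50 ± 0.14 in 11G+FK against 2G (adjusted p = 0.0954 by edgeR). DESeq2 called both, with adjusted p-values of 0.0429 and 0.0396. It also called more of all genes in these comparisons, 1315 and 769 against 778 and 332 by edgeR. With edgeR none of 5 proteins passed between 11G+FK and 2G, beside 2.06% of all genes called (1.47% higher), and 3 had an unadjusted p under 0.05. Diazoxide gave Nono a change from 11G of 0.19 ± 0.14 (adjusted p = 0.528 by edgeR). At 11G against 2G, Nono had the lowest log2 change of the 6 members, not called by edgeR, and Neat1 had the highest of the 6.

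Sfpq, the partner of Nono that is needed for paraspeckles and also regulates splicing, had no call in wild-type islets. It was at 43.6 and 38.4 FPKM in 11G+D, at 35.5 and 48.1 FPKM in 11G+FK, at 40.5 and 45.1 FPKM in 11G, and at 48.3 and 56.8 FPKM in 2G. The first 3 of these groups overlapped each other, and all lay below 2G.

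Light was the condition in which Sfpq was called. It was at 51.9 and 73.8 FPKM with light, against 38.2 and 25.9 FPKM without light, and the groups did not overlap. Sfpq rose by 0.95 ± 0.20 on the log2 scale (adjusted p = 0.0335 by edgeR), the 1 of 5 proteins called, beside 0.600% of all genes called higher. The size differed between the mice, 0.40 in mouse 1 and 1.50 in mouse 2. The call was lost without the block (adjusted p = 0.998 by edgeR) and in the fit of all 12 libraries (0.94, adjusted p = 0.178 by edgeR), and without either library of mouse 2 that fit gave 0.38. A gene model on the same strand, Gm12940, overlaps Sfpq and held 142 to 603 counts, against 1703 to 5006 for Sfpq.

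Pspc1 had 8.21 and 9.6 FPKM with light, against 7.45 and 4.47 FPKM without, a change of 0.59 ± 0.24 that did not pass (adjusted p = 0.353 by edgeR). Nono had 86.9 and 102 FPKM with light, against 91 and 115 FPKM without (log2 change -0.14 ± 0.15, adjusted p = 0.795 by edgeR). In mouse 2, whose Neat1 was lower with light, Sfpq and Pspc1 were higher with light by 1.50 and 1.09 on the log2 scale. In mouse 1 the same changes were 0.40 and 0.10, and Neat1 was higher by 0.40. These are values of single library pairs and carry no test.

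Hnrnpk, an abundant RNA-binding protein of many nuclear roles, varied least. It stood at 143 and 146 FPKM in 11G+D, at 142 and 135 FPKM in 11G+FK, at 154 and 150 FPKM in 11G, at 184 and 175 FPKM in 2G, at 141 and 173 FPKM with light, and at 142 and 180 FPKM without light. The highest level was 1.36 times the lowest. No comparison called it, with log2 changes of -0.39 to -0.06. Among the members, high over low across all 12 libraries was 21.1 for Neat1, 4.25 for Rbm14, 3.70 for Pspc1, 2.85 for Sfpq, 1.78 for Nono and 1.36 for Hnrnpk.

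**Figure D3:**
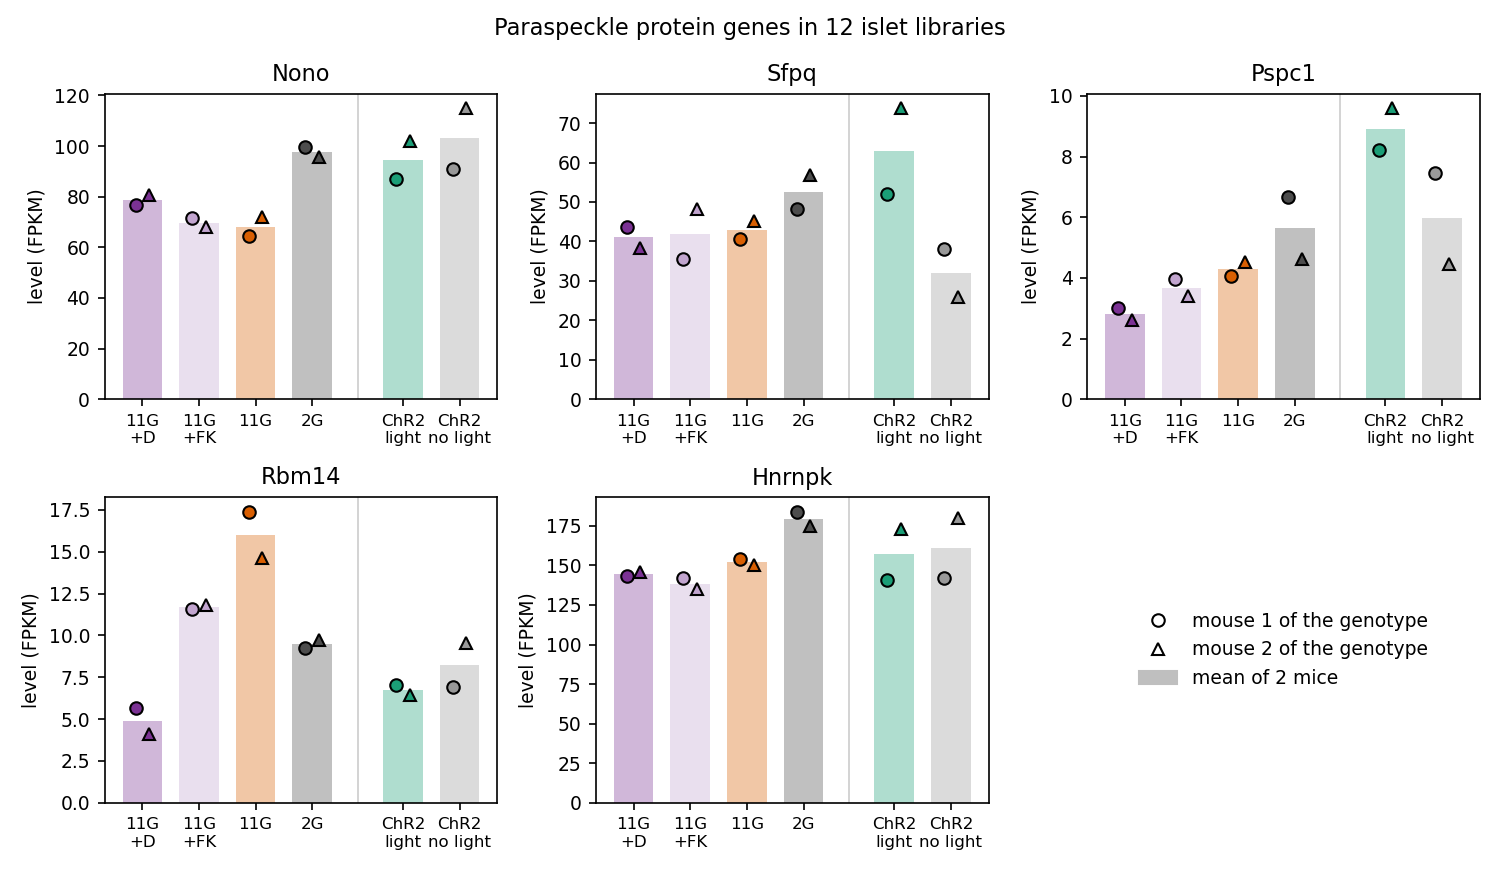
Level in FPKM of the 5 protein genes in each islet library, with bars for means of 2 mice and symbols for single mice. Rbm14 runs from 4.09 to 17.4 FPKM over the wild-type groups, whereas Hnrnpk stays between 135 and 184 FPKM.

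The ratio of Neat1 to the transcripts of the proteins that coat it is given as a description, since Neat1 varies more than its denominator and so sets most of it. Neat1 FPKM over the sum of Nono, Sfpq and Pspc1 FPKM was 0.157 and 0.144 in 11G+D, 1.24 and 1.34 in 11G+FK, 1.71 and 1.51 in 11G, and 0.456 and 0.375 in 2G. It was 0.326 and 0.0475 with light, against 0.257 and 0.412 without. Both values are transcript levels per length, and the protein amounts were not measured. Within that sum Nono made up 55.1% to 79.1% over the 12 libraries and Pspc1 2.13% to 5.59%. Sfpq made up 35.3% and 39.7% with light, against 27.9% and 17.9% without, where both values lay below every other library.

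**Figure D4:**
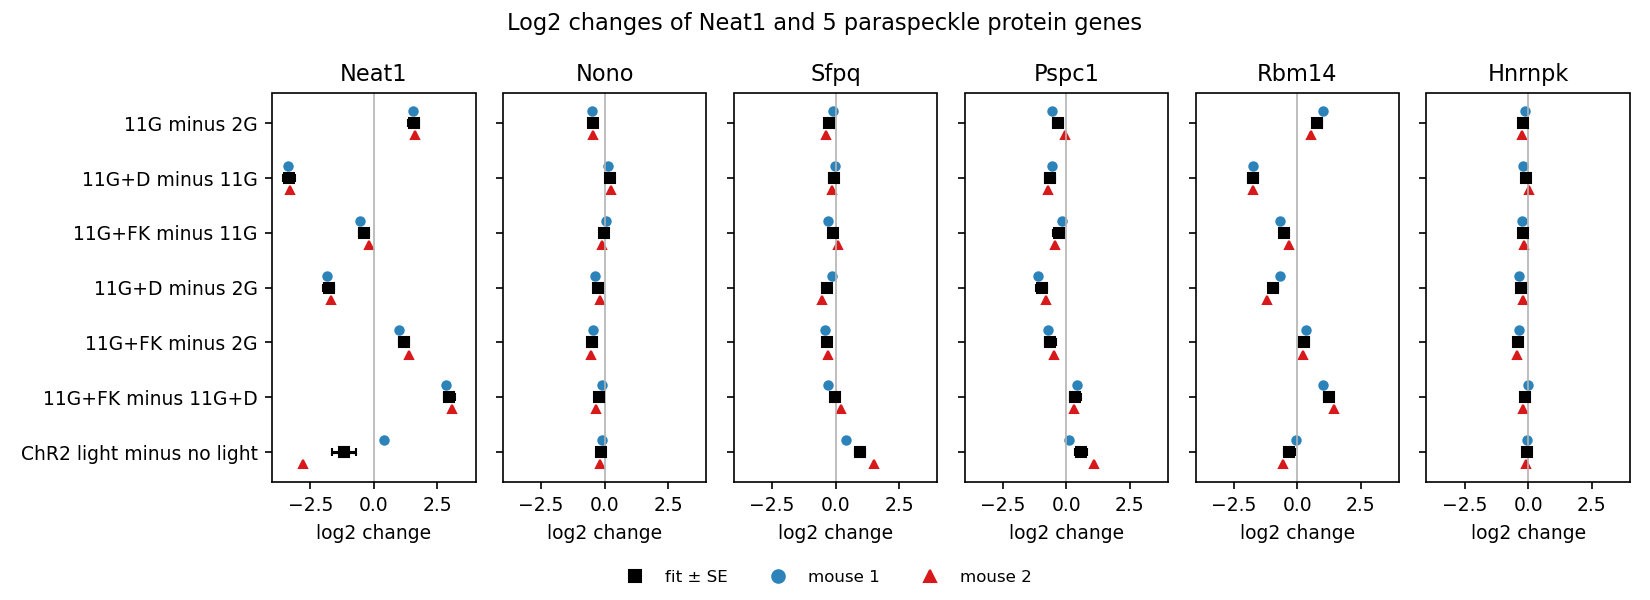
Log2 change of the 6 members in the 7 comparisons, with the fitted change and its standard error as a square and the changes of mouse 1 and mouse 2 as a circle and a triangle. Neat1 and Rbm14 lie furthest left of 0 for 11G+D minus 11G in both mice, and Pspc1 and Sfpq also lie left of it in both. The mice lie on opposite sides of 0 for Neat1 under light.

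Beyond the members, a list of 34 other paraspeckle proteins was taken from knowledge of the body's composition, and 33 of them were found in the tables. Against 11G, edgeR called 2 higher and 2 lower with diazoxide of 33 tested, where 1.33% of all genes were called higher and 2.46% lower. Their median log2 change was 0.06, against 0.00 over all genes. Hnrnph1, a splicing regulator, was at 131 and 105 FPKM in 11G+D against 72.9 and 66.1 FPKM in 11G (0.74 ± 0.16, adjusted p = 0.0391 by edgeR). Ewsr1, an RNA-binding protein, was at 167 and 173 FPKM in 11G+D against 97.5 and 114 FPKM in 11G (0.66 ± 0.16, adjusted p = 0.0483 by edgeR).

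The members of that list called lower with diazoxide were RNA-binding proteins of low or moderate level. Rbm12 was at 0.808 and 1.04 FPKM in 11G+D against 2.31 and 2.6 FPKM in 11G (-1.44 ± 0.22, adjusted p = 0.00734 by edgeR). Rbm4b, a splicing factor, was at 11.6 and 7.19 FPKM in 11G+D against 16.5 and 12.6 FPKM in 11G (-0.67 ± 0.15, adjusted p = 0.041 by edgeR). Both mice fell in each case, although for Rbm4b the groups nearly met. The Rbm12 call was lost without the 11G library of mouse 1 (-1.25, adjusted p = 0.162 by edgeR). The Ewsr1 and Rbm4b calls were lost whichever of the 4 libraries was left out (changes of 0.58 to 0.74 and -0.77 to -0.59). The Hnrnph1 call held only without the 11G+D library of mouse 2 (0.80, adjusted p = 0.0408 by edgeR), and the other 3 fits gave 0.66 to 0.80.

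At 11G against 2G, 1 of 33 was called higher and none lower, beside 3.13% and 1.71% of all genes. It was Rbm4b, at 16.5 and 12.6 FPKM in 11G against 10.7 and 6.93 FPKM in 2G (0.79 ± 0.15, adjusted p = 0.0206 by edgeR). It held without the 2G library of mouse 1 (0.86) and was lost without any other of the 4 libraries (0.71 to 0.81). In the fits that lost it, calls over all genes also fell. In 11G+D against 2G, Zc3h6 (1.39 ± 0.28, adjusted p = 0.0256 by edgeR) and Ss18l1, a subunit of neuronal chromatin remodelling complexes (0.85 ± 0.20, adjusted p = 0.0404 by edgeR), were higher and Rbm12 was lower (-1.18 ± 0.22, adjusted p = 0.0201 by edgeR). That made 2 called higher and 1 called lower of 33, beside 2.92% and 2.31% of all genes. All 3 calls were lost without the mouse 2 library of 2G (adjusted p = 0.067, 0.153 and 0.0835 by edgeR) or of 11G+D (adjusted p = 0.0807, 0.17 and 0.0586 by edgeR). Leaving out 1 library at a time moved the Zc3h6 change over 0.91 to 2.01, the first without the 2G library of mouse 2 and the second without that of mouse 1.

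In the remaining comparisons edgeR called none of the list. Between 11G+FK and 11G the count was 0 of 33 with edgeR and 0 with DESeq2, 6 had an unadjusted p under 0.05, and 0.23% of all genes were called by edgeR. Between 11G+FK and 2G DESeq2 called 3 of the list and 769 of all genes, where edgeR called 2.06% of all genes. An unadjusted p under 0.05 was held there by 10 of the list. Between 11G+FK and 11G+D DESeq2 called 2, and 11 had an unadjusted p under 0.05, where edgeR called 1.17% of all genes. The edgeR shares are no background for counts by DESeq2 or by unadjusted p. No share of all genes was counted at that unadjusted p. For light the count was 0 of 32 with edgeR and 0 with DESeq2, 5 had an unadjusted p under 0.05, and 0.844% of all genes were called by edgeR. Without the mouse number as a block edgeR called none of the list in any comparison.

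**Figure D5:**
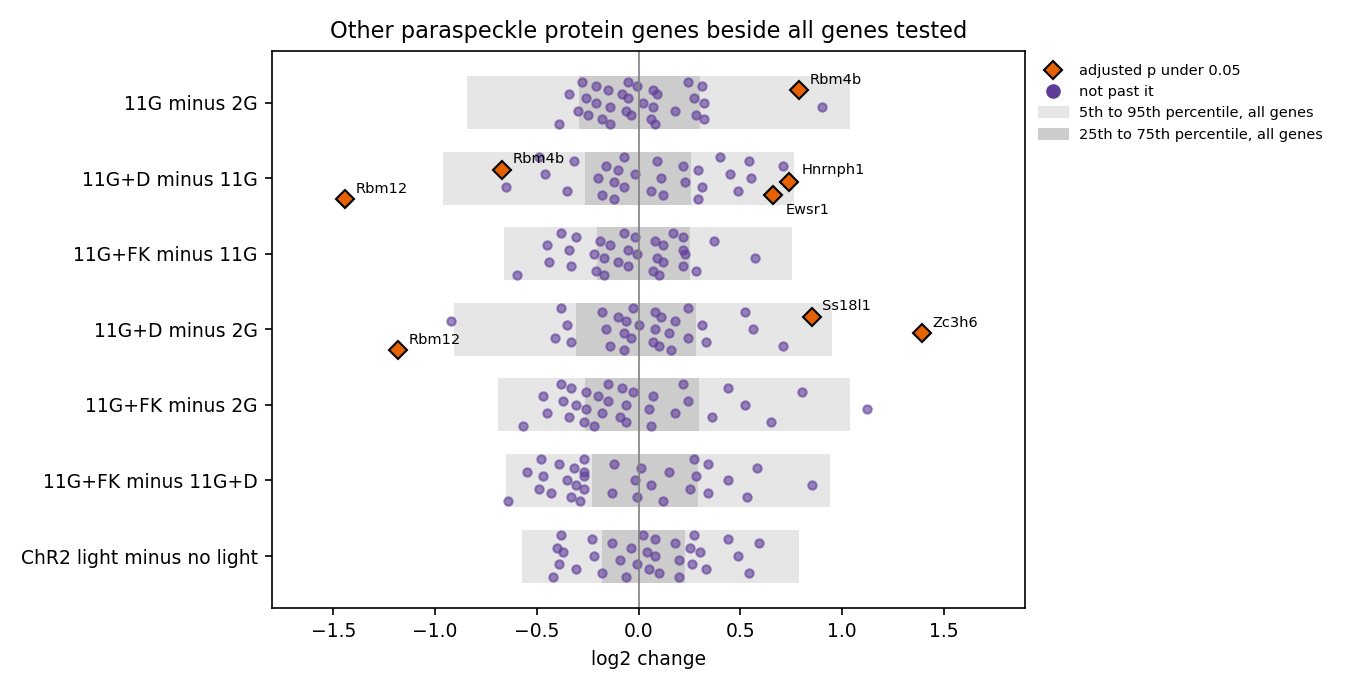
Log2 change of 33 other paraspeckle protein genes in each comparison (32 for light), 1 point per gene, over grey bands that hold the middle of all genes tested. Diamonds are genes called by edgeR, of which Rbm12 and Rbm4b lie left of 0 and Hnrnph1 and Ewsr1 right of 0 for 11G+D minus 11G, and most points lie inside the bands.

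Of 10 listed regulators of Neat1 transcription or Neat1 RNA, Arnt, the partner of the hypoxia-inducible factors, was the 1 called by edgeR, at 11G against 2G, where 3.13% of all genes were called higher. It stood at 39.4 and 29.7 FPKM in 11G against 23.8 and 18.9 FPKM in 2G (0.74 ± 0.15, adjusted p = 0.0265 by edgeR). The call was lost whichever of the 4 libraries was left out (0.62 to 0.86) and without the block (adjusted p = 0.24 by edgeR). Calls over all genes also fell in these fits, except without the 2G library of mouse 1. Its change in 11G+D against 11G was -0.38 ± 0.15 (adjusted p = 0.208 by edgeR). EdgeR called 0 of the 10 in each other comparison, where 0.23% to 5.22% of all genes were called, as did DESeq2, and between 0 and 3 of them had an unadjusted p under 0.05. Hif1a, which senses low oxygen, was at 35.3 and 32.5 FPKM in 11G+D against 33.6 and 36.7 FPKM in 11G. Hsf1, the heat shock factor, was at 36.2 and 41.3 FPKM in 11G+D against 32.9 and 37 FPKM in 11G. Both pairs of groups overlapped.

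Around Neat1, 14 genes lie within 100 kb and 12 of them were tested. With the filter on low counts, edgeR called 0 of the 12 in each comparison, where 0.23% to 5.22% of all genes were called, and DESeq2 also called 0. Unadjusted p-values under 0.05 numbered 2 of 12 between 11G+D and 11G and 4 of 12 for light, with no share of all genes counted at that level. Malat1, the abundant nuclear RNA gene downstream of Neat1, stood at 469 and 184 FPKM in 11G+D, at 441 and 354 FPKM in 11G+FK, at 506 and 487 FPKM in 11G, and at 464 and 97.8 FPKM in 2G. Its 2G libraries were far apart, and at 11G against 2G the log2 change was 1.20 ± 0.43 (adjusted p = 0.129 by edgeR). Without the 2G library of mouse 1 it was 2.08 (adjusted p = 0.0182 by edgeR), and with no filter on low counts the adjusted p by edgeR was 0.00327. For 11G+D against 11G it was -0.83 ± 0.42 (adjusted p = 0.323 by edgeR). Malat1 was at 439 and 215 FPKM with light, against 208 and 173 FPKM without (0.66 ± 0.19, adjusted p = 0.127 by edgeR).

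On the other strand, 145 bases beyond the 5′ end of Neat1, starts Frmd8os, a noncoding gene with few reads. It had 1 and 0 counts in 11G+D, 15 and 15 in 11G+FK, 18 and 17 in 11G, and 20 and 1 in 2G. It had 1 and 2 counts with light, against 12 and 14 without. Frmd8os was not called between 11G+D and 11G (adjusted p = 0.0904 by edgeR) or for light (adjusted p = 0.14 by edgeR). With no filter on low counts the first of these adjusted p-values was 0.012. Frmd8os overlaps Frmd8 on the opposite strand, and the labels do not say whether counting used strand, so reads of these 2 genes cannot be told apart where they overlap.

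Rbm14 was looked at in the same way, in a window chosen after its values were seen. Within 100 kb of it lie 12 genes, of which 11 were tested. Rbm4b and Rbm4 were called higher at 11G than at 2G, 2 of 11 beside 3.13% of all genes, Rbm4 by 1.23 ± 0.27 on the log2 scale. The Rbm4 call held without the 2G library of mouse 1 and was lost without any other of the 4 (0.97 to 1.50), where calls over all genes also fell. Rbm4b and Zdhhc24 were called lower in 11G+D than in 11G, 2 of 11 beside 2.46% of all genes. Because the window was chosen for its values, these counts are a description, and Rbm4 and Zdhhc24 are given without p-values. Zdhhc24, a member of the palmitoyltransferase family, was at 5.78 and 3.94 FPKM in 11G+D against 11.4 and 11.1 FPKM in 11G (-1.25 ± 0.17). Its call was lost without the 11G library of mouse 1 (-1.36) or of mouse 2 (-1.17), and without the block (-1.24). Rbm4 and Rbm4b are close paralogs, so the authors' counting could split or share their reads.

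The genes whose levels most resembled Neat1 were ranked by the correlation of log2 CPM over the 8 wild-type libraries. The ranking took 557 genes that averaged 10 CPM or more and whose group means spread by at least 1 on the log2 scale. Gene models with Gm, AC, BC or Rik names were left out beforehand, so the ranking does not cover them. The 8 libraries come from 2 mice and 4 conditions and share their depth and normalization with Neat1, so r is a description. The leading 8 were Rasgrf1 (r = 0.978), Etv5 (0.962), Rbm14 (0.958), Rbm45 (0.953), Zdhhc24 (0.949), Slc25a40 (0.942), Tmem80 (0.930) and Slc44a3 (0.929). Rasgrf1, a calcium-responsive activator of Ras, was at 39.9 and 37.2 FPKM in 11G+D, at 95.7 and 87 FPKM in 11G+FK, at 100 and 90.8 FPKM in 11G, and at 69.3 and 53.3 FPKM in 2G. The other members had r of 0.476 (Pspc1), 0.009 (Sfpq), -0.053 (Hnrnpk) and -0.495 (Nono) with Neat1.

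None of these 8 genes was called for light by edgeR, where 0.844% of all genes were called. Their log2 changes were -0.31 to 0.11. Rasgrf1 was at 52.6 and 70.3 FPKM with light, against 54.9 and 66.4 FPKM without (-0.02 ± 0.15, adjusted p = 0.983 by edgeR). Etv5, an ETS transcription factor, was at 3.44 and 8.82 FPKM with light, against 3.66 and 10.4 FPKM without (-0.20 ± 0.20, adjusted p = 0.797 by edgeR).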

How the data were processed

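Each of 8 deposited tables sets 2 libraries of the same mouse side by side. Per the file headers it gives, for every gene, the raw read counts, the FPKM, a normalized count (a signal scaled by the authors within the table), and the authors' log2 fold change with raw and adjusted p-value. A commercial provider prepared and sequenced the libraries, per the labels' protocols. The aligner, the counting tool and its strand setting, the build and the test behind the p-values are not given in the sources used.

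The counts were joined by gene and library. The test was that of edgeR 4.0.16 (R 4.3.3): quasi-likelihood test, TMM scaling, filterByExpr (minimum count 10, minimum total 15), mouse number as a block, two-sided, Benjamini-Hochberg adjustment over all genes tested, threshold 0.05. Wild-type libraries (16087 genes, 3 residual degrees of freedom) and ChR2 libraries (15171 genes, 1 residual degree of freedom) were fitted apart. All 5 proteins and Neat1 passed the filter in both fits. Standard errors are the log2 change over the square root of F. Shares of all genes called are those of edgeR. No share of all genes was counted at an unadjusted p under 0.05. Changes per mouse use log2 CPM with a prior count of 1. Levels are the deposited FPKM, which are per length. The script was tested on simulated counts.

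The labels give islets of 1 mouse number to each condition, which pairs the libraries. Deviations from group means of same-numbered libraries correlated by 0.15 to 0.46 in wild type and 0.50 in ChR2. P-values rest on 2 mice per group.

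The members, lists and rules were chosen with earlier results of these data known. The rule for named genes took every member, the called genes of each list up to 6 and the 8 genes most like Neat1. Hif1a and Hsf1, given as values, and the light controls and the Rbm14 window were chosen after their values were seen. Motifs planned for Neat1 were searched in the proteins' promoters instead. Promoter sequences are from RefSeq on GRCm38.p6. Alternatives were no block, DESeq2 1.42.0, RLE factors, no low-count filter, a joint fit of all 12 libraries, and each library left out in turn. A fit that left out 1 library kept 1 library in that group. Calls over all genes also changed in most of these fits, so a call lost there need not be particular to the gene named.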

Additional observations from a re-analysis of the deposited data

How the results depend on the processing

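With 2 mice per group the protein calls other than Rbm14 in 11G+D against 11G depended on the fit. Without the mouse block, edgeR called 0 proteins in place of 1 at 11G against 2G, 0 in place of 2 in 11G+D against 2G, 0 in place of 1 in 11G+FK against 11G+D, and 0 in place of 1 for light; the 1 call in 11G+D against 11G stayed. DESeq2 called 2 proteins at 11G against 2G and 1 in 11G+FK against 2G. It called 1315 and 769 of all genes in these comparisons, where edgeR called 778 and 332. The fit of all 12 libraries called 0 for light. With no filter on low counts the Neat1 light change of -1.18 had an adjusted p of 2.67e-09 by edgeR; the cause was not tested.

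Leaving out 1 library at a time gave Neat1 log2 changes of 1.46 to 1.67 (11G against 2G), -3.40 to -3.30 (11G+D against 11G), -0.55 to -0.22 (11G+FK against 11G), -1.88 to -1.67 (11G+D against 2G), 1.02 to 1.35 (11G+FK against 2G), 2.80 to 3.13 (11G+FK against 11G+D) and -2.79 to 0.39 (light, in the fit of all 12 libraries). In each of these fits 1 group held 1 library. The Rbm14 call in 11G+D against 11G held in all of them, and every other protein call was lost in some. No protein was called for 11G+FK against 11G or 2G. The number of all genes called also changed in most of these fits, falling in some and rising in others. A lost call is thus not particular to the protein. Changes that were not called took both directions for Sfpq (-0.26 to 0.08 in 11G+D against 11G, -0.28 to 0.06 in 11G+FK against 11G, -0.20 to 0.14 in 11G+FK against 11G+D), Hnrnpk (-0.20 to 0.01 in 11G+D against 11G) and Nono (-0.11 to 0.05 in 11G+FK against 11G). Over all genes, calls without the block were 68 (in place of 778) at 11G against 2G, 59 (610) in 11G+D against 11G, 1 (37) in 11G+FK against 11G, 10 (840) in 11G+D against 2G, 5 (332) in 11G+FK against 2G, 5 (188) in 11G+FK against 11G+D and 0 (128) for light.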
